A study of Mus musculus with 48 samples.

Results

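The 10 genes that build serine, carry its one-carbon units on folate and use them for purines were followed in 48 single cells of the mouse embryo. These are *Phgdh*, *Psat1*, *Psph*, *Shmt1*, *Shmt2*, *Mthfd1*, *Mthfd2*, *Mthfd1l*, *Atic* and *Impdh2*, 10 of the 21435 genes in the tables. The list was chosen by the level of such genes in HEC cells over AEC cells, seen in these same cells, so what follows describes their values and tests nothing. The 24 HEC cells and 24 AEC cells were sorted from the aorta-gonads-mesonephros (AGM) region of wild-type C57 embryos at embryonic day 10, where the earliest hematopoietic stem cells form. The labels do not spell out the group names, which in this field commonly stand for hemogenic endothelial cells and arterial endothelial cells. A cell type tag on HEC samples says hematopoietic stem cells instead. Cells of both groups carry no mutation or treatment, were kept on ice after sorting, and were lysed singly by mouth pipette. Full-length cDNA of polyA RNA from each cell was read on a Nanopore PromethION instrument. No label ties a cell to an embryo, so each group counts as 1 sample, no p-value is given, and every SD is the spread between the cells of a group.

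Serine is made from a glycolytic intermediate by Phgdh, Psat1 and Psph. Serine hydroxymethyltransferases then split it into glycine and a one-carbon unit held on folate, and the Mthfd enzymes interconvert the forms of that unit in the cytosol and in mitochondria. The unit enters the purine ring, and Atic and Impdh2 act at the end of the ring's synthesis and on the way to guanine nucleotides. Dividing cells, and the blood progenitors of the embryo among them, draw on these routes for nucleotides.

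For 3 of the genes, *Shmt2*, *Mthfd1* and *Atic*, the results below turn on which transcript was read, so the stretches in which their main transcripts differ are shown here (GENCODE M21 transcripts, mm10, 5′ to 3′). *Shmt2* lies on the minus strand of chromosome 10, and its transcripts Shmt2-201 and Shmt2-206 use acceptor sites 9 bases apart at exon 2 (chr10:127520918-127521115 in Shmt2-201). Capitals mark the 9 coding bases, 3 codons, that Shmt2-206 lacks.
Shmt2-201: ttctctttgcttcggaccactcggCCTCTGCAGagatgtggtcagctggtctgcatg
Shmt2-206: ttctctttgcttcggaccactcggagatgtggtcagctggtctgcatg
*Mthfd1* lies on the plus strand of chromosome 12, and its exon 2 (chr12:76270418-76270502), in capitals, is present in Mthfd1-201 and skipped in Mthfd1-206. The exon holds 85 bases, which is no whole number of codons, and the annotation gives Mthfd1-206 a later start codon and 2265 coding bases, against 2805 in Mthfd1-201.
Mthfd1-201: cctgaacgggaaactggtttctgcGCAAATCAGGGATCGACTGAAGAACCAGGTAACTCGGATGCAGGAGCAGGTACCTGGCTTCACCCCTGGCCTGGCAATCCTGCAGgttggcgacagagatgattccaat
*Atic* lies on the plus strand of chromosome 1. Its transcript Atic-201 joins exon 12 (chr1:71572908-71573036) to exon 13, whereas Atic-205, annotated as a retained intron, runs 327 bases past the splice site, and its first intron bases are in capitals.
Atic-201: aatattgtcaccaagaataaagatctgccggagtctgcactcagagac
Atic-205: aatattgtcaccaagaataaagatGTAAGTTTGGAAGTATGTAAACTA

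Promoter windows of the genes were read from RefSeq (GRCm38.p6, 250 bases before to 50 bases after the start site); all 10 genes matched, with 11 windows in all. The windows of *Phgdh*, *Atic* and *Impdh2*, which were among the genes at least 2-fold higher in HEC cells, and both windows of *Psat1*, whose second start belongs to a transcript found in few cells, are shown with CCAAT boxes and E-boxes (CACGTG) in capitals.
Phgdh promoter, chr3:98339920-98340219, minus strand: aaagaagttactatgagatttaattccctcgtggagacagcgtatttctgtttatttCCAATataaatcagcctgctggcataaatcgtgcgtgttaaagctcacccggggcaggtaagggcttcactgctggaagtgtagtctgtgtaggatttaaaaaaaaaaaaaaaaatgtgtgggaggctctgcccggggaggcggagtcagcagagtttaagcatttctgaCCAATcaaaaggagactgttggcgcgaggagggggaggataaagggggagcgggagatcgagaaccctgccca
Atic promoter, chr1:71556906-71557205, plus strand: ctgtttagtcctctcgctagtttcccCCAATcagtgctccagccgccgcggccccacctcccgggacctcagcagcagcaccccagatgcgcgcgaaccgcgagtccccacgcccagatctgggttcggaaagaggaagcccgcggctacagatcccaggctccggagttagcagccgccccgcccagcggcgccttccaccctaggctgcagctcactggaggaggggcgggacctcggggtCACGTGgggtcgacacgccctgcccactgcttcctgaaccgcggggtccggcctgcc
Impdh2 promoter, chr9:108560186-108560485, plus strand: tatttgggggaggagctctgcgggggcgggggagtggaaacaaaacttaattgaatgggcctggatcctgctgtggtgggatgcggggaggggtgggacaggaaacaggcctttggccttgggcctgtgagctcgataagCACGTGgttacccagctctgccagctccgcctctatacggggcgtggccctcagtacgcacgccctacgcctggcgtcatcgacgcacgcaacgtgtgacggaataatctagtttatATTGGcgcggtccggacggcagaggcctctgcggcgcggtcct
Psat1 promoter, first window, chr19:15925010-15925309, minus strand: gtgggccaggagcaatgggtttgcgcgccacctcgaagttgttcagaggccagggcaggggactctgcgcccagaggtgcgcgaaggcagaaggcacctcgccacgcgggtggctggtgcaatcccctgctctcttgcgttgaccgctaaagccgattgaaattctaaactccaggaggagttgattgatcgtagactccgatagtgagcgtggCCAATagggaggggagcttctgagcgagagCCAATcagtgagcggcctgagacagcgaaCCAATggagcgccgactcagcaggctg
Psat1 promoter, second window, chr19:15924573-15924872, minus strand: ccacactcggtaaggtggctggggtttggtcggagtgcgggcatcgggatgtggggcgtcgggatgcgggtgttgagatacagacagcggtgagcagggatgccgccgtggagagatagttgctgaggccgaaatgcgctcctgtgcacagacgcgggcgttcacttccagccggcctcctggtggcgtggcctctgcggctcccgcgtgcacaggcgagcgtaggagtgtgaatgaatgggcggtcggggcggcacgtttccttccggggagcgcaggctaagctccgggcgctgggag
Both strands were searched. The E-box, the site of Myc and its partner Max, was present in 2 of the 11 windows, at position -7 in *Atic* and at position -110 in *Impdh2*, and in 7.15% of all 32851 windows. CCAAT was present in 8 of the 11 windows, against 37.4% of all windows. *Phgdh* has it at -193 and -23, and the first *Psat1* window has it at -36, -6 and 24, while the second *Psat1* window has none. The windows of *Shmt2*, which was also at least 2-fold higher in HEC cells, and of *Mthfd1l* hold neither CCAAT nor an E-box. Neither TGATGNAAT, the composite element bound by Atf4 with a Cebp partner, nor TGACGTCA, the cyclic AMP element, was in any of the 11 windows; they were in 0.965% and 1.79% of all windows. A match is a run of letters, and binding was not measured.

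Depth per cell ran from 96410 to 8897958 reads in HEC cells (median 724674) and from 13261 to 4883854 reads in AEC cells (median 769716). Genes with a read numbered 10981 ± 2076 per HEC cell and 8302 ± 2643 per AEC cell, a difference beyond the larger SD, and 10 AEC cells lay below the lowest HEC cell; the part of this difference in the results was not tested. The unit of level is reads per 10000 reads of a cell, summed over a gene's transcripts, and 1 read is worth up to 0.754 on that scale in the shallowest cell. The hemogenic and early blood markers summed to 19.7 ± 6.95 in HEC cells and 3.63 ± 3.78 in AEC cells (SD, n = 24 cells each), with *Runx1* among them at 2.49 ± 1.37 in HEC cells and 0.438 ± 0.651 in AEC cells. The arterial markers summed to 10.98 ± 12.8 in HEC cells and 39.5 ± 22.9 in AEC cells, and every AEC cell lay above the HEC median of 5.03. Some cells stood apart. Of the AEC cells, 6 (1, 7, 8, 10, 12 and 21) held under 60000 reads, and no HEC cell did. Another 4 cells, HEC 20 and AEC 11, 19 and 20, had little of the endothelial genes *Cdh5* (0.12 to 0.42) and *Kdr* (0.066 to 0.14), and the 3 AEC cells among them held 8.69 to 33.3 of the collagen gene *Col1a1*. AEC 6 carried the blood genes *Runx1* (1.41) and *Myb* (2.71). *Runx1* was higher in AEC 7 (2.26) and AEC 17 (1.75) and about as high in AEC 1 (1.40). In AEC 17 *Myb* was at 0.291, and AEC 1 and AEC 7 had no read of it. With 14242 reads in AEC 1 and 13261 in AEC 7, against 1747714 in AEC 6, the values of those 2 shallow cells rest on few reads.

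The summed level of the 10 genes was higher in HEC cells. It ran from 2.178 to 14.3 per 10000 reads in HEC cells, with a median of 8.63, against 0.523 to 11.9 in AEC cells, with a median of 2.76. The means were 9.34 ± 3.18 in HEC cells and 3.97 ± 3.46 in AEC cells (SD, n = 24 cells each), a log2 ratio of 1.21, and their difference exceeded the larger SD. All but 1 of the HEC cells (23 of 24) lay above the AEC median, 10 AEC cells lay below the lowest HEC cell, and the groups overlapped through 3 AEC cells above the HEC median. Without the 10 cells that were shallow or had little *Cdh5* and *Kdr*, the means were 9.40 ± 3.24 in 23 HEC cells and 2.87 ± 3.18 in 15 AEC cells, a log2 ratio of 1.68.

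Gene by gene, 9 of the 10 were higher and 1 was lower in HEC cells by group mean, with a median log2 ratio of 0.89, against 0.05 over the 3297 genes that had a mean of at least 0.5 and a value above 0 in at least 12 of the 24 cells of a group. The genes at least 2-fold higher were 4 (*Phgdh*, *Shmt2*, *Atic* and *Impdh2*), beside 5.43% of those 3297 genes, and 0 were at least 2-fold lower, beside 9.74%. With median-of-ratios scaling the 4 genes stayed past 2-fold, beside 88 of the 3297 genes higher (2.67%) and 527 lower (15.98%), in place of 179 and 321. *Psph* was then past 2-fold lower at -1.28; it was at -1.20 with a pseudocount of 0.01 and at -1.003 once HEC 20 and AEC 11, 19 and 20 were left out. Only 4 of the 10 genes (*Phgdh*, *Psat1*, *Shmt2* and *Impdh2*) passed the same level minimum. For 3 genes (*Phgdh*, *Atic* and *Impdh2*) the difference of means exceeded the larger SD between cells, beside 4.03% of all genes. The list was chosen for this contrast, so these shares are printed side by side and nothing is read from them. Without the 10 cells named above, 6 of the 10 genes were at least 2-fold higher, as *Psat1* and *Mthfd1* joined the 4, and 7.49% of the 3297 genes were.

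**Figure D1:**
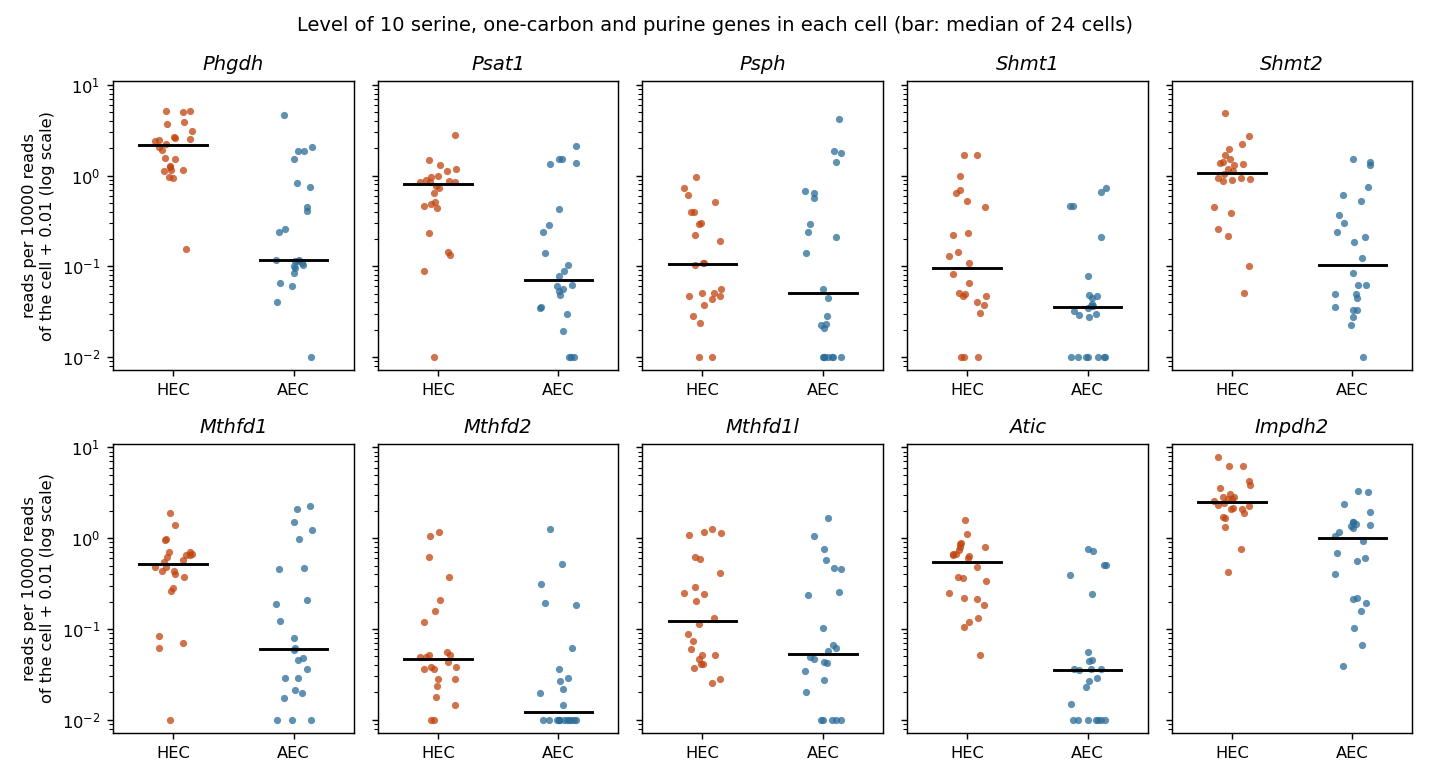
Level of each of the 10 genes in every cell, as reads per 10000 reads of the cell plus 0.01 on a log scale; points are 24 HEC cells (left of each panel) and 24 AEC cells (right), and the bar is the group median. The medians of *Phgdh* are 2.13 in HEC cells and 0.107 in AEC cells, while the *Psph* and *Mthfd1l* points of the groups cover one another.

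The plot of levels by cell shows that low AEC medians came with a tail of AEC cells reaching HEC levels. Serine synthesis begins with *Phgdh*, the dehydrogenase that draws glycolytic carbon into the pathway (chr3:98313170-98339990). *Phgdh* ran from 0.145 to 5.17 in HEC cells with a median of 2.13, against 0 to 4.68 in AEC cells with a median of 0.107. Its means were 2.32 ± 1.40 in HEC cells and 0.661 ± 1.08 in AEC cells (SD, n = 24 cells each), a log2 ratio of 1.67. It reached 1 per 10000 in 21 HEC cells (87.5%, exact Clopper-Pearson 95% interval 67.6% to 97.3%) and in 5 AEC cells (20.8%, 7.13% to 42.2%). Every HEC cell lay above the AEC median, and 1 AEC cell, AEC 20, lay above the HEC median. AEC 20 is one of the cells with little *Cdh5* and *Kdr* and held 29.5% of the AEC sum. Without it the log2 ratio was 2.04, and without the 10 cells named above it was 2.81. *Phgdh* was read as a single transcript, Phgdh-201, in both groups.

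*Psat1*, the aminotransferase of the second step (chr19:15904678-15947337), ran from 0 to 2.77 in HEC cells with a median of 0.794, against 0 to 2.11 in AEC cells with a median of 0.0605. Its means, 0.771 ± 0.580 in HEC cells and 0.392 ± 0.635 in AEC cells (log2 ratio 0.82), differed by less than the SD. It stood at 0.5 or more in 15 HEC cells and 5 AEC cells, but at 1 or more in 5 cells of each group. AEC 1, 4, 6, 7 and 19 reached 1 only with reads of Psat1-204, a transcript annotated as a retained intron, as did HEC 9 and HEC 24. AEC 1 and AEC 7 are also shallow. On protein-coding transcripts alone the log2 ratio was 1.48.

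*Psph*, the phosphatase that releases serine (chr5:129765558-129787449), was the 1 gene of the 10 with a lower mean in HEC cells, 0.212 ± 0.259 in HEC cells and 0.503 ± 0.970 in AEC cells, a log2 ratio of -0.95. It ran from 0 to 0.962 in HEC cells (median 0.0953) and from 0 to 4.23 in AEC cells (median 0.0405). AEC 12, a cell of 40206 reads, held 35.0% of the AEC sum, and without it the log2 ratio was -0.50. The ratio of medians had the other sign, 0.48. A gene on the opposite strand, *Cct6a*, overlaps *Psph* and had 20878 reads over the 48 cells, and whether counting used strand was not given in the sources used here.

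Of the serine hydroxymethyltransferases, mitochondrial *Shmt2* (chr10:127517123-127522444) ran from 0.0414 to 4.81 in HEC cells with a median of 1.06, against 0 to 1.51 in AEC cells with a median of 0.0928. Its means were 1.23 ± 1.01 in HEC cells and 0.326 ± 0.462 in AEC cells, a log2 ratio of 1.64, a difference under the larger SD. It reached 1 per 10000 in 13 HEC cells (54.2%, exact Clopper-Pearson 95% interval 32.8% to 74.4%) and 3 AEC cells (12.5%, 2.66% to 32.4%). After thinning every cell to 10000 reads, in 1 random draw, it was seen in 14 HEC cells and 6 AEC cells. Of the 3 AEC cells at 1 or more, AEC 1 and AEC 7 had under 60000 reads, and the third was AEC 6. Cytosolic *Shmt1* (chr11:60788104-60811718) was at 0.323 ± 0.491 in HEC cells and 0.118 ± 0.216 in AEC cells, a log2 ratio of 0.95 within the SD. It ran up to 1.68 in HEC cells (median 0.0858) and up to 0.727 in AEC cells (median 0.0255). Most cells of both groups held little of it, with 15 HEC cells and 19 AEC cells below 0.15.

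The folate enzymes had the smallest ratios of group means among the genes that were higher. *Mthfd1*, the cytosolic enzyme that carries 3 activities on one chain in mammals (chr12:76255298-76319803), had means of 0.564 ± 0.428 in HEC cells and 0.408 ± 0.681 in AEC cells, a log2 ratio of 0.39, but medians of 0.506 in HEC cells and 0.0505 in AEC cells, a log2 ratio of 2.01 with the pseudocount. It was above the AEC median in 23 HEC cells, while 5 AEC cells lay above the HEC median. AEC 12, which is shallow, and AEC 19, which has little *Cdh5* and *Kdr*, were the highest AEC cells at 2.24 and 2.10. Without the 10 cells named above the log2 ratio was 1.22, and after thinning every cell to 10000 reads it was -0.25. *Mthfd2*, the mitochondrial dehydrogenase and cyclohydrolase (chr6:83305691-83325908), was at 0.169 ± 0.320 in HEC cells and 0.107 ± 0.272 in AEC cells, a log2 ratio of 0.38. In each group 19 cells held less than 0.15 of it, and the sign of its ratio turned when reads were pooled over cells (-0.49) and when cells were thinned (-0.45). *Mthfd1l*, the mitochondrial synthetase that releases formate (chr10:3973118-4167081), was at 0.325 ± 0.414 in HEC cells and 0.244 ± 0.412 in AEC cells, a log2 ratio of 0.30, which was 1.07 after thinning every cell to 10000 reads. It reached 1 or more in 4 HEC cells and 2 AEC cells, so the groups covered each other.

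At the purine end, *Atic*, the enzyme of the last steps to inosine monophosphate (chr1:71557150-71579631), ran from 0.0414 to 1.56 in HEC cells with a median of 0.533, against 0 to 0.754 in AEC cells with a median of 0.0257. Its means were 0.524 ± 0.371 in HEC cells and 0.140 ± 0.239 in AEC cells, a log2 ratio of 1.38. All 24 HEC cells lay above the AEC median and 17 AEC cells lay below the lowest HEC cell, which was the cleanest separation among the 10 genes by that count. *Impdh2*, the dehydrogenase that commits inosine monophosphate to guanine nucleotides (chr9:108560286-108565584), ran from 0.415 to 7.86 in HEC cells with a median of 2.50, against 0.0292 to 3.31 in AEC cells with a median of 0.989. Its means were 2.90 ± 1.74 in HEC cells and 1.07 ± 0.936 in AEC cells, a log2 ratio of 1.36. It stood at 1 or more in 22 HEC cells (91.7%, exact Clopper-Pearson 95% interval 73.0% to 98.97%) and in 12 AEC cells (29.1% to 70.9%). *Impdh2* was above 0 in all 48 cells. A gene on the opposite strand, *Ndufaf3*, overlaps it and had 1892 reads over the 48 cells.

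Summed by role, serine synthesis was at 3.30 ± 1.67 in HEC cells and 1.56 ± 1.76 in AEC cells, and every HEC cell lay above the AEC median of 0.639. The hydroxymethyltransferases summed to 1.55 ± 1.23 in HEC cells and 0.444 ± 0.531 in AEC cells, the folate enzymes to 1.06 ± 0.866 in HEC cells and 0.759 ± 1.04 in AEC cells, and the purine enzymes to 3.43 ± 1.72 in HEC cells and 1.21 ± 1.102 in AEC cells. The purine sum was the 1 of the 4 whose difference exceeded the larger SD. The mitochondrial enzymes together (*Shmt2*, *Mthfd2* and *Mthfd1l*) were at 1.72 ± 1.19 in HEC cells and 0.677 ± 0.762 in AEC cells (log2 ratio 1.23), and the cytosolic pair (*Shmt1* and *Mthfd1*) at 0.886 ± 0.787 in HEC cells and 0.526 ± 0.725 in AEC cells (0.66). Leaving out *Phgdh* and *Impdh2*, the other 8 genes summed to 4.12 ± 1.79 in HEC cells and 2.24 ± 2.37 in AEC cells, a log2 ratio of 0.85.

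**Figure D2:**
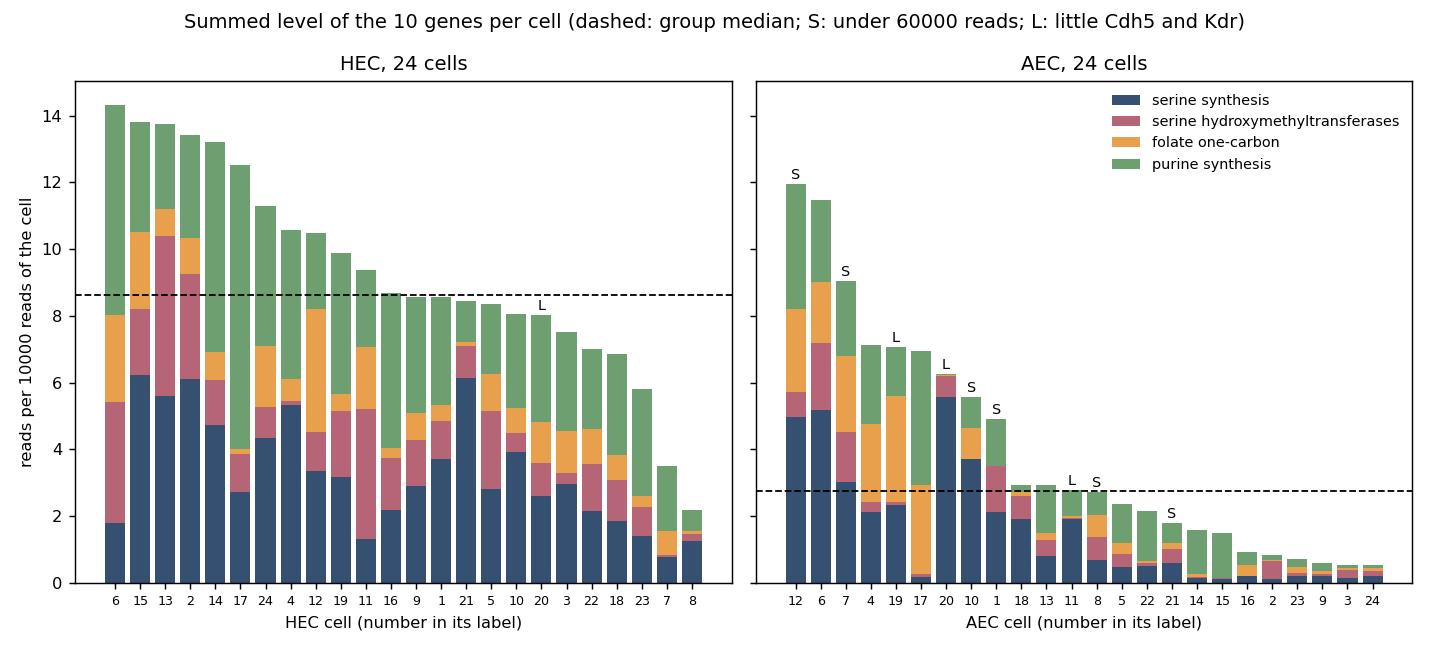
Summed level of the 10 genes in each cell, in reads per 10000 reads of the cell, HEC cells left and AEC cells right, each ordered from highest to lowest; colours are the 4 roles, the dashed line is the group median, S marks cells of under 60000 reads and L cells with little *Cdh5* and *Kdr*. Most of the 8 AEC cells above 5 carry an S or an L, and the AEC cells at the right hold almost none of the 10 genes.

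The plot of sums shows how unevenly AEC cells carried the pathway. A sum of more than 5 was reached by 22 HEC cells and by 8 AEC cells, namely AEC 4, 6, 7, 10, 12, 17, 19 and 20. Of those 8 AEC cells, 3 had under 60000 reads and 2 had little *Cdh5* and *Kdr*. AEC 4, at 7.12, was neither. It had 1572087 reads, with *Cdh5* at 6.14, *Kdr* at 5.34, *Gja5* at 24.3 and *Runx1* at 0.0318. AEC 6, at 11.5, had the highest summed hemogenic and early blood markers of the AEC cells (15.2), and it held 7 of the 10 genes at 0.5 or more. AEC 17, at 6.94, came next in those markers (9.83). The other 16 AEC cells ran from 0.523 to 4.92 with a median of 1.69. AEC 3, 9 and 24, at 0.54, 0.60 and 0.52, were cells with high *Cdh5* (10.2 to 18.1). The highest value of any of the 10 genes in them was 0.211, for *Impdh2* in AEC 9. At the low end of the HEC cells stood HEC 8 at 2.178, the shallowest HEC cell, and HEC 7 at 3.50. HEC 7 had the lowest *Runx1* of the HEC cells (0.145) and a *Gja5* level of 12.2, *Gja5* being an arterial connexin gene. Other HEC cells with much *Gja5* had higher sums. HEC 12, with the highest *Gja5* of all cells (39.1), summed to 10.5, HEC 16 (11.2) to 8.68 and HEC 18 (9.78) to 6.85. Per cell, a median of 5 of the 10 genes stood at 0.5 or more in HEC cells and 1.5 in AEC cells. The part that shallow cells, blood genes and collagen genes had in these sums was not tested beyond leaving the cells out.

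**Figure D3:**
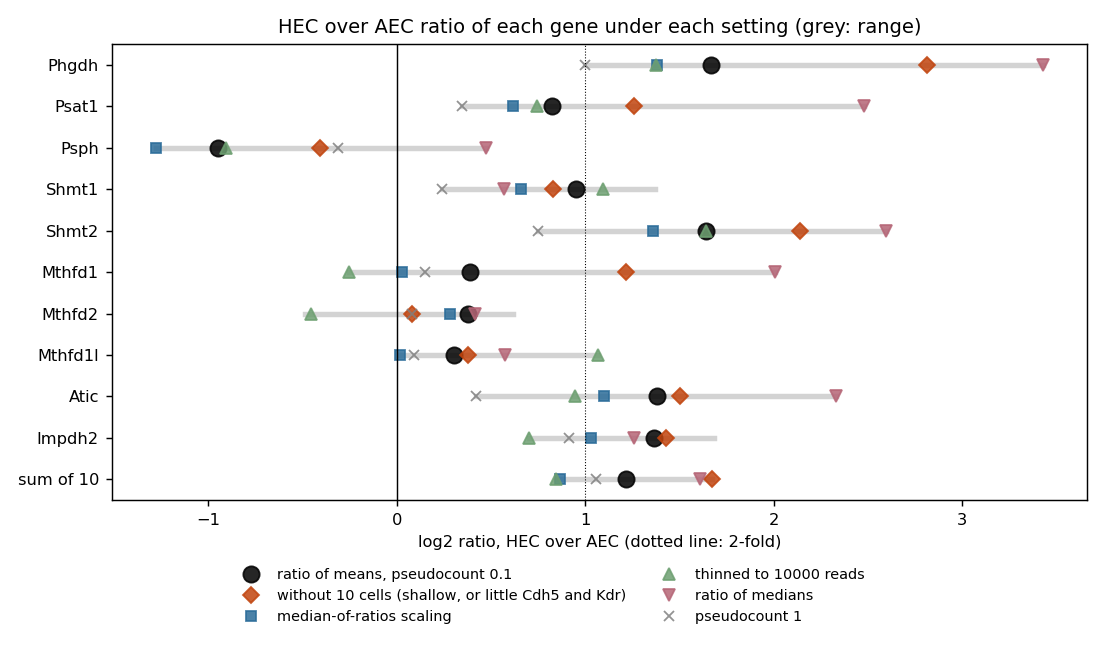
Log2 ratio of HEC over AEC for each of the 10 genes and their sum, with symbols for 6 ways of computing it and a grey bar for the range over 13; the dotted line is 2-fold. *Phgdh*, *Shmt2*, *Atic* and *Impdh2* stay right of 0 throughout, whereas *Psph*, *Mthfd1* and *Mthfd2* have settings on both sides of 0.

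The plot of ratios by setting sorts the genes by how far the ratio depended on the computation. *Phgdh* ran from 1.00 with a pseudocount of 1 to 3.43 for the ratio of medians, and *Shmt2* from 0.75 to 2.59 over the same pair. For *Impdh2* the lowest value was 0.70, after thinning to 10000 reads, and for *Atic* it was 0.42, with a pseudocount of 1. Leaving out any single cell kept *Phgdh* between 1.59 and 2.04, *Shmt2* between 1.46 and 1.83, *Atic* between 1.27 and 1.55, and *Impdh2* between 1.26 and 1.49.

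Within HEC cells the 10 genes moved together only loosely: the 45 pairs had a median Spearman rho of 0.10 (from -0.38 to 0.45), the highest being *Phgdh* with *Psat1*. Within AEC cells the median was 0.18 (from -0.26 to 0.64), the highest being *Mthfd1* with *Mthfd1l*. These are descriptions over 24 cells each, and the values of a cell share its library and depth. By rank over all 24 cells of a group, the summed level ran against the arterial markers. Its rho with the summed arterial markers was -0.62 in HEC cells and -0.67 in AEC cells (n = 24 each), and with the endothelial markers -0.58 in HEC cells and -0.65 in AEC cells. In the 18 AEC cells of 60000 reads or more the value with arterial markers was -0.51. All of these values include the cells with little *Cdh5* and *Kdr*, and they were not computed without them. Of those cells, AEC 11, 19 and 20 held 19.1, 15.3 and 12.4 of the arterial markers, against an AEC median of 35.3. The rho with the summed hemogenic and early blood markers was 0.26 in HEC cells and 0.40 in AEC cells, and with *Myb*, a regulator of blood progenitors, 0.47 in HEC cells and -0.10 in AEC cells. With reads per cell it was -0.06 in HEC cells and -0.27 in AEC cells. In the 18 AEC cells of 60000 reads or more these AEC values were 0.14 with the hemogenic and early blood markers, 0.24 with *Myb* and 0.06 with reads per cell. S phase genes had a rho of 0.33 in HEC cells, 0.43 in AEC cells and 0.58 in the 18 AEC cells of 60000 reads or more. Their summed level was nevertheless alike in the groups, 23.3 ± 9.99 in HEC cells and 24.1 ± 15.02 in AEC cells. All of these values are parts of the same total per cell, so a cell that spends more reads on one set has fewer for another.

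**Figure D4:**
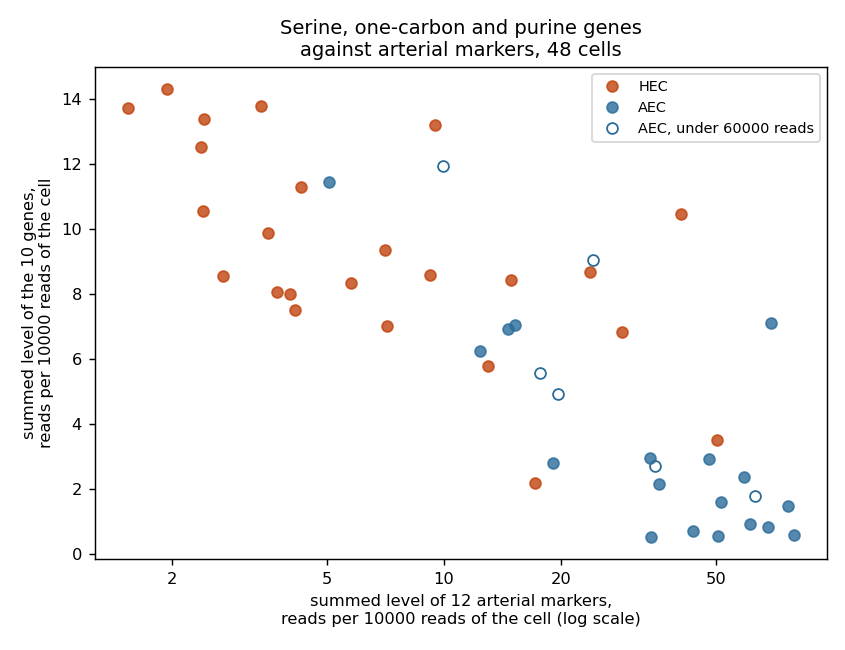
Summed level of the 10 genes against the summed level of 12 arterial markers in each of 48 cells, both in reads per 10000 reads of the cell, the arterial axis on a log scale; open circles are AEC cells of under 60000 reads. Cells run from the upper left, mostly HEC, to the lower right, mostly AEC, and AEC 6, an AEC cell at 11.5 with few arterial reads, lies among the HEC cells.

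The plot against arterial markers shows the groups as a single slope with overlapping ends. HEC 12 lay off it, with arterial markers at 40.7 and a sum of 10.5. Of those 40.7, *Gja5* alone was 39.1, so the other arterial markers were low in that cell. AEC 4 also lay off the slope, with arterial markers at 69.2, *Gja5* among them at 24.3, and a sum of 7.12. Markers of other kinds moved with the groups too. The 16 dissociation stress genes summed to 59.7 ± 19.2 in HEC cells (14.5 to 86.4) and 22.4 ± 11.7 in AEC cells (5.22 to 57.3), with a rho with the summed level of the 10 genes of 0.33 in HEC cells and 0.39 in AEC cells. The 6 of 10 macrophage markers found summed to 1.20 ± 0.948 in HEC cells (0.0828 to 3.44) and 0.242 ± 0.326 in AEC cells (0 to 1.51). The 11 of 12 mesenchymal markers found summed to 6.12 ± 6.18 in HEC cells (1.26 to 31.6) and 21.01 ± 45.3 in AEC cells (0.859 to 150.1), with the high AEC values in the cells that held *Col1a1*. The 10 erythroid markers, all found, summed to 33.8 ± 22.9 in HEC cells (17.2 to 126.2) and 22.03 ± 28.8 in AEC cells (6.48 to 137.5). Their part in the difference between the groups was not tested.

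The 8 genes whose level followed the summed level of the 10 genes most closely over the 48 cells, by Spearman rho among 3197 candidates, were *Hsp90aa1* (0.79), *Eif5a* (0.78), *Npm1* (0.77), *Ldha* (0.75), *Hspd1* (0.74), *Rpsa* (0.72), *Ptma* (0.72) and *Hspa1a* (0.71). They include chaperones (*Hsp90aa1*, *Hspd1* and *Hspa1a*), a translation factor, a ribosomal protein and a nucleolar protein. *Hsp90aa1* and *Hspa1a* are also among the 16 dissociation stress genes. All 8 had a higher mean in HEC cells, from a log2 ratio of 0.40 for *Rpsa* to 3.14 for *Hspa1a*. Within the groups their rho was lower, from 0.31 to 0.51 in HEC cells and from 0.32 to 0.67 in AEC cells, and the value over 48 cells also takes in the difference between the groups.

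The rest of de novo purine synthesis was mostly higher in HEC cells. Of its 12 other genes with a mean of at least 0.1, 10 were higher and 2 lower, with a median log2 ratio of 0.58, and 3 were at least 2-fold higher (*Prps1*, *Adss* and *Gmps*). Over the 3297 genes past the level minimum of 0.5, 53.1% were higher in HEC cells and 9.74% were at least 2-fold lower. With the minimum of 0.1 that these lists used, 6.39% were at least 2-fold higher, and the share lower was not computed. *Prps1*, which makes the phosphoribosyl donor, was at 0.775 ± 0.622 in HEC cells and 0.219 ± 0.486 in AEC cells (log2 ratio 1.45). *Adss*, on the branch to adenine nucleotides, was at 1.23 ± 0.962 in HEC cells and 0.446 ± 0.633 in AEC cells (1.28), and *Gmps*, which follows Impdh in making guanine nucleotides, at 0.993 ± 0.732 in HEC cells and 0.404 ± 0.561 in AEC cells (1.12). *Ppat*, the committed step, had a log2 ratio of 0.66, *Gart* 0.74, *Adsl* 0.89, *Paics* 0.33, *Pfas* 0.26 and *Prps2* 0.31. *Impdh1*, the paralog of *Impdh2*, was at 0.284 ± 0.303 in HEC cells and 0.342 ± 0.564 in AEC cells (-0.21). None of these differences of a single gene exceeded the larger SD.

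The 17 genes of purine salvage had a median log2 ratio of 0.12, with 11 higher and 6 lower, and 1 (*Adk*, 1.09) at least 2-fold higher and 2 (*Xdh*, -1.24, and *Dck*, -1.43) at least 2-fold lower. The salvage enzymes *Hprt*, at 0.670 ± 0.462 in HEC cells and 0.643 ± 0.744 in AEC cells, and *Aprt*, at 1.52 ± 1.00 in HEC cells and 1.59 ± 1.54 in AEC cells, differed little. AEC 12 held 48% of the AEC sum of *Dck* and AEC 21 65% of that of *Xdh*, and both cells are shallow. Whether the synthesis and salvage lists differ was not tested. Among 15 genes of pyrimidine and deoxynucleotide synthesis the median log2 ratio was 0.37, with 9 higher and 6 lower. *Cad*, which begins pyrimidine synthesis, was at 0.811 ± 0.528 in HEC cells and 0.283 ± 0.425 in AEC cells (1.25), a difference larger than the SD, and *Dhodh*, *Ctps2* and *Dctd* were also at least 2-fold higher. *Rrm2*, a ribonucleotide reductase subunit of S phase, was at least 2-fold lower (-1.08), and *Ctps* had a ratio of -0.10.

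The remaining folate genes had ratios on both sides of 0. Of 12 with a mean of at least 0.1, 7 were higher and 5 lower in HEC cells, with a median log2 ratio of 0.10 and none past 2-fold in either direction. Thymidylate synthase *Tyms* was at 1.496 ± 1.24 in HEC cells and 1.28 ± 1.38 in AEC cells (0.21). The folate carrier *Slc19a1* had a ratio of 0.72, *Fpgs* 0.18, the mitochondrial carrier *Slc25a32* 0.32, and *Mthfd2l*, the paralog of *Mthfd2*, -0.71. *Aldh1l2* averaged 0.0142 in HEC cells and 0.00508 in AEC cells, too little to compare.

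Serine and glycine transport and cleavage gave a median log2 ratio of 0.21 over 13 genes, 11 higher and 2 lower. The 1 gene past 2-fold was *Slc1a5*, a carrier of glutamine and other neutral amino acids, at 0.812 ± 0.766 in HEC cells and 0.122 ± 0.231 in AEC cells, a log2 ratio of 2.04. *Slc1a5* reached 1 in 7 HEC cells and 0 AEC cells. *Slc1a4*, its paralog, was at -0.14, the mitochondrial serine carrier *Sfxn1* at 0.21, and *Gcsh* of the glycine cleavage system at 0.03. *Gldc*, the decarboxylase of that system, was low in both groups, 0.0717 ± 0.0709 in HEC cells and 0.237 ± 0.513 in AEC cells. The methionine cycle had a median of 0.81 over 11 genes, 10 higher and 1 lower, with *Ahcyl1* (1.39) and *Srm* (1.28) past 2-fold. *Ahcy*, which clears homocysteine's precursor, was at 1.67 ± 0.750 in HEC cells and 0.794 ± 0.892 in AEC cells (0.98), and *Mat2a*, which makes S-adenosylmethionine, at 2.56 ± 1.46 in HEC cells and 1.63 ± 1.65 in AEC cells (0.63).

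A pair of regulators known to act on these genes were looked at by list. Atf4 turns on serine synthesis genes when amino acids are short, and *Atf4* was at 1.14 ± 0.840 in HEC cells and 0.493 ± 0.699 in AEC cells, a log2 ratio of 1.06 within the SD. Of 10 genes of its list, 8 were higher and 2 lower, with a median of 0.80. *Atf4*, *Cebpb* and *Nupr1* were past 2-fold, *Asns* was at 0.249 ± 0.247 in HEC cells and 0.109 ± 0.298 in AEC cells (0.74), and *Slc7a11* was close to 0 in both groups. *Atf4* is largely controlled by translation, which these reads do not measure. The mean and the median of *Mycn* ordered the groups differently. The median was 1.84 in HEC cells and 0.035 in AEC cells, and 16 HEC cells against 1 AEC cell stood at 1 or more. The AEC mean was nevertheless higher, 1.88 ± 1.46 in HEC cells and 3.92 ± 18.8 in AEC cells, because AEC 7, a cell of 13261 reads, stood at 92.0 and held 97.7% of the AEC sum. Without AEC 7 the AEC mean was 0.0931 ± 0.180 and the log2 ratio 3.36. *Myc* was at 0.482 ± 0.697 in HEC cells and 0.662 ± 1.36 in AEC cells (-0.39), and its ratio was 0.20 without AEC 6, which held 40.9% of the AEC sum. Of 25 genes of the Myc family and textbook Myc targets, 21 were higher and 4 lower, with a median of 0.77. At least 2-fold higher were 7 of them, including the nucleolar genes *Ncl* (1.34), *Npm1* (1.22) and *Fbl* (1.49), and 1, *Mycn*, was at least 2-fold lower by its mean. Of the routes that feed the pathway, 11 genes of glycolysis had a median of 0.49 (9 higher, 2 lower) and 7 of the pentose phosphate pathway -0.09 (3 higher, 4 lower).

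The annotation holds 69 transcripts of the 10 genes, of which 33 were in the tables and 22 held at least 5% of their gene in a group. *Phgdh* and *Impdh2* were read almost wholly as 1 protein-coding transcript in both groups: Phgdh-201 held 100% in each, and Impdh2-201 98.7% in HEC cells and 98.0% in AEC cells. The other 8 genes were read as several transcripts across the cells and, apart from *Atic*, mostly as 1 within a cell. *Atic* had 1 transcript at 90% or more of the reads in 7 of 17 HEC cells and 2 of 5 AEC cells with at least 10 reads. Of 163 pairs of a gene and a cell with at least 10 reads, 122 (74.8%) had 1 transcript at 90% or more of the reads, 86 of 119 in HEC cells and 36 of 44 in AEC cells. Reads of a cell can be copies of few cDNA molecules, and the tables do not separate copies from molecules, so a share within 1 cell may rest on few molecules.

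**Figure D5:**
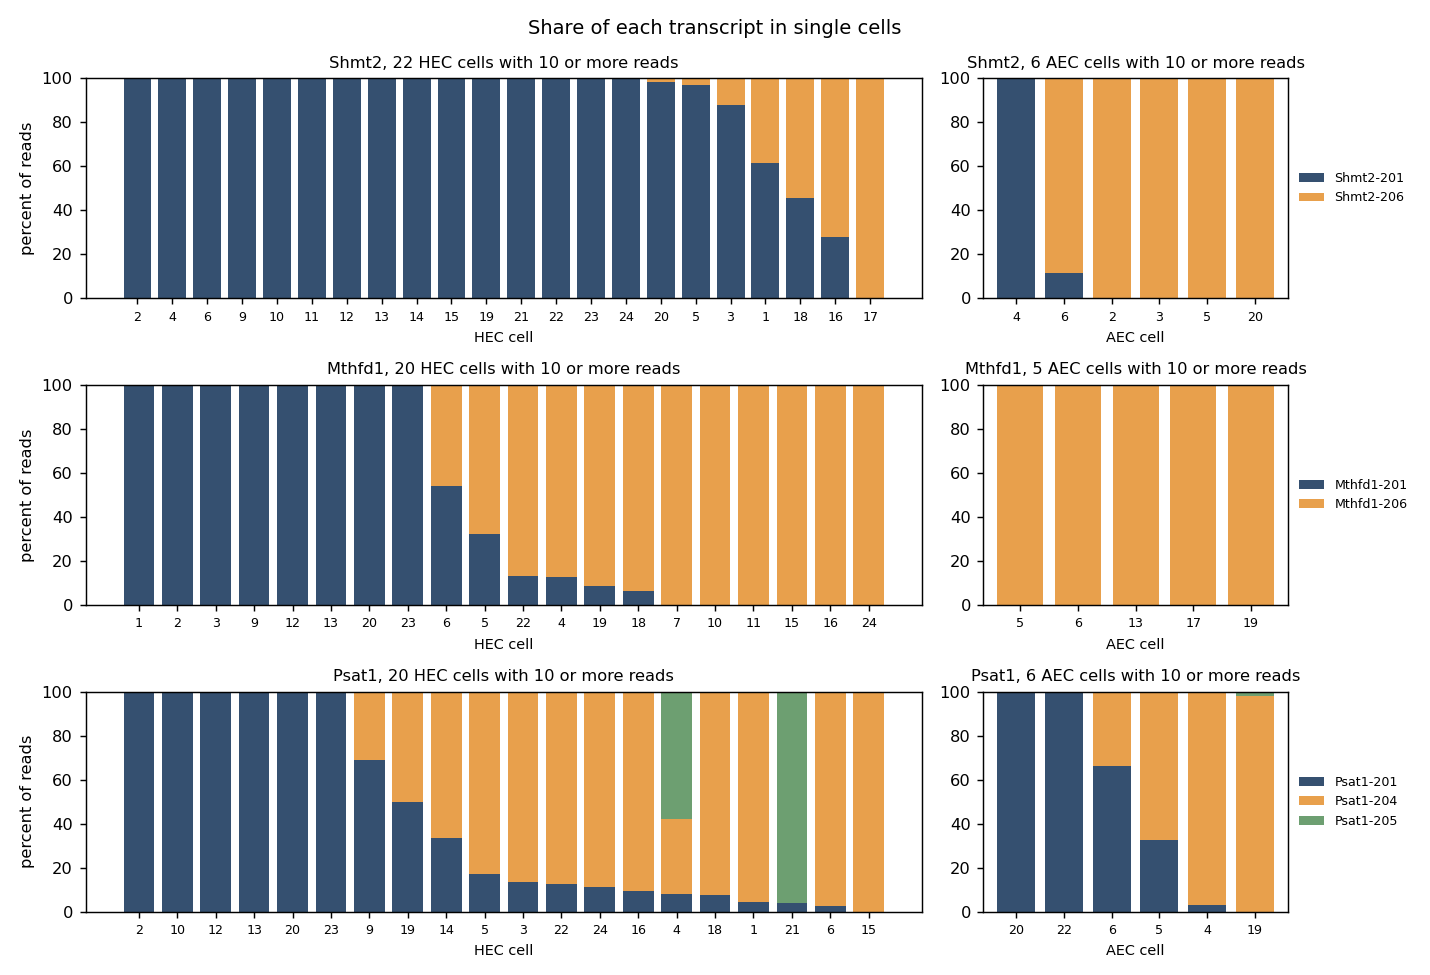
Percent of a gene's reads held by each transcript of *Shmt2*, *Mthfd1* and *Psat1* in single cells with 10 or more reads of the gene, HEC cells left and AEC cells right; each bar is 1 cell. *Shmt2* is mostly Shmt2-201 in HEC cells and mostly Shmt2-206 in the 6 AEC cells. All 5 AEC cells with 10 or more *Mthfd1* reads show Mthfd1-206, and Psat1-205 appears in HEC 4 and HEC 21.

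The plot of transcript shares shows this near all-or-none use. Shmt2-201, with the 9 bases shown in capitals above, held 88.6% of *Shmt2* in HEC cells and 29.4% in AEC cells, and Shmt2-206 held 11.4% in HEC cells and 70.6% in AEC cells. Of the cells with at least 10 *Shmt2* reads, 17 of 22 HEC cells and 1 of 6 AEC cells had Shmt2-201 at 90% or more. HEC 2 gave 1228 reads of Shmt2-201 and 0 of Shmt2-206, HEC 19 380 and 0, and HEC 17 0 and 36. In AEC cells, AEC 5 gave 0 reads of Shmt2-201 and 174 of Shmt2-206, AEC 6 26 and 199, AEC 20 0 and 83, AEC 2 0 and 52, AEC 3 0 and 32, and AEC 4 45 and 0. HEC 1, the deepest cell, had both, with 488 reads of Shmt2-201 and 304 of Shmt2-206. The level of Shmt2-206 itself was 0.140 ± 0.309 in HEC cells and 0.230 ± 0.385 in AEC cells, so the higher *Shmt2* of HEC cells was reads of Shmt2-201, at 1.09 ± 1.07 in HEC cells and 0.0957 ± 0.310 in AEC cells. AEC 7, a shallow cell, held 65.6% of the Shmt2-201 of the AEC group. The 2 transcripts also start 58 bases apart and end at different positions.

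*Mthfd1* showed both transcripts in HEC cells. Mthfd1-201, with the 85-base exon, held 46.8% in HEC cells and 23.5% in AEC cells, and Mthfd1-206, without it, 53.2% in HEC cells and 76.5% in AEC cells. With reads pooled over cells, Mthfd1-201 held 60.4% in HEC cells and 2.95% in AEC cells. Of 20 HEC cells with at least 10 reads, 8 had Mthfd1-201 at 90% or more and 8 had Mthfd1-206. HEC 1 gave 381 reads of Mthfd1-201 and 0 of Mthfd1-206 and HEC 2 314 and 0, whereas HEC 24 gave 0 and 72. All 5 AEC cells with at least 10 reads had Mthfd1-206 alone, with 213 reads in AEC 6 and 159 in AEC 19. The AEC share of Mthfd1-201 came almost wholly from AEC 12, a shallow cell that held 97.3% of it. Its 16 AEC reads were 9 in AEC 12, 6 in AEC 14 and 1 in AEC 2. Those cells, with fewer than 10 reads of the gene, had 0 reads of Mthfd1-206.

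*Psat1* was read as Psat1-201, the 9-exon protein-coding transcript, for 41.9% in HEC cells and 22.99% in AEC cells. Psat1-204, a 3-exon transcript annotated as a retained intron within the 3′ part of the gene, held 43.7% in HEC cells and 76.7% in AEC cells. Whether reads given to it were whole or cut short was not tested. Psat1-205, a protein-coding transcript that begins at the second promoter window shown above and has 1101 coding bases against 1110 in Psat1-201, held 14.4% in HEC cells and 0.281% in AEC cells. It came from few cells: HEC 4 gave 176 reads and HEC 21 70 reads, all 246 of the HEC group, and AEC 19 gave 2. *Atic* was read as the protein-coding Atic-201 for 62.5% in HEC cells and 58.4% in AEC cells and as the intron-retaining Atic-205 for 29.1% in HEC cells and 39.5% in AEC cells. AEC 7, a shallow cell, held 57.1% of the Atic-205 of the AEC group. HEC 2 gave 171 reads of Atic-201 and 191 of Atic-205, and HEC 19 181 and 0. Atic-203, a second intron-retaining transcript, held 6.71% in HEC cells and 0% in AEC cells, and HEC 17 held 64.9% of its HEC sum.

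The other genes varied by cell in the same way. Mthfd1l-202 held 70.6% of *Mthfd1l* in HEC cells and 42.0% in AEC cells, and Mthfd1l-201 29.4% in HEC cells and 58.0% in AEC cells; both have 2931 coding bases. With reads pooled over cells, Mthfd1l-202 held 68.1% in HEC cells and 66.0% in AEC cells, a difference of 2.07 percentage points in place of 28.6. *Shmt1* was Shmt1-201 for 64.7% in HEC cells and 51.4% in AEC cells. Its processed transcript Shmt1-208 held 35.1% in HEC cells and 23.7% in AEC cells. Shmt1-206, a retained intron, held 0.118% in HEC cells and 23.97% in AEC cells, and 86 of its 89 AEC reads came from AEC 13. Psph-201 held 80.1% in HEC cells and 96.4% in AEC cells. Psph-202, which begins inside the gene and has 303 coding bases against 675, held 13.3% in HEC cells and 0% in AEC cells, with HEC 17 holding 84.5% of it, and Psph-206 held 5.54% in HEC cells and 0% in AEC cells, with HEC 18 holding 95.1% of it. Mthfd2-201 held 99.3% in HEC cells and 83.6% in AEC cells, and Mthfd2-207, a short transcript of 443 bases, 0.401% in HEC cells and 16.4% in AEC cells, with 57 of its 67 AEC reads in AEC 16. Retained introns and processed transcripts together held 43.7% of *Psat1* in HEC cells and 76.7% in AEC cells, 37.5% of *Atic* in HEC cells and 41.6% in AEC cells, and 35.3% of *Shmt1* in HEC cells and 48.6% in AEC cells. *Smcr8*, on the strand opposite *Shmt1*, had 1037 reads over the 48 cells, and *Ndufa4l2*, opposite *Shmt2*, had 429.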

How the data were processed

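Full-length cDNA of polyA RNA of 48 single cells was read by Nanopore PromethION. Per the submitters' processing notes, genome build mm10, Salmon 1.1.0 and minimap2 2.18-r1015 were used; the annotation release was not given in the sources used here. The deposited unit is a signal per transcript, the reads per 10000 reads of the cell, made by the authors, over 52927 transcripts. The values were whole multiples of 1 read within 0.01 of a read (100% of values), which gave the reads per cell.

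Transcripts were matched to GENCODE M21 (52799 of 52927) and summed by gene. Ratios of HEC over AEC (log2) were taken on group means with a pseudocount of 0.1, which understates the ratio of low genes. Cells were grouped by title. No test was run, since no label names an animal. Shares of cells carry exact Clopper-Pearson 95% intervals, which take the cells of a group as independent draws. They cover neither the error of read counts nor differences between embryos, and they do not compare the groups. Isoform shares are percents of the gene's summed value over a group. Transcripts at 5% or more, a fixed list of pathway genes and the 8 genes of highest rho were named; a few pathway genes and counts were named after their values were seen. Some genes of the fixed list are not reported here. The 10 genes, the lists and the cells left out were chosen with earlier results of these data known. Promoters came from RefSeq (GRCm38.p6), and no protein sequence was used here. The ratio was checked on simulated data for genes with a mean of at least 0.5, which 4 of the 10 genes had. The check does not cover the other, lower genes. The tools were matplotlib 3.10.9, scipy 1.17.1, pandas 2.3.3, numpy 2.4.6 and Python 3.11.15.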

Additional observations from a re-analysis of the deposited data

How the results depend on the processing

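Leaving out each cell in turn kept the log2 ratio of the summed level between 1.16 and 1.34, the median log2 ratio between 0.79 and 1.05, and the number of genes at least 2-fold higher between 4 and 5. With a pseudocount of 1 that number was 0. Median-of-ratios scaling, on 855 genes above 0 in every cell, set the median of all 3297 genes at -0.24 in place of 0.05; relative to it the 10 genes ranged from -1.04 for *Psph* to 1.62 for *Phgdh*, and their sum was at 1.11. Single genes turned sign as follows: *Psph* to 0.48 for the ratio of medians, *Mthfd2* to -0.49 with pooled reads and -0.45 with thinning, and *Mthfd1* to -0.25 with thinning. Thinning was 1 random draw. It left *Mthfd1* in 6 HEC cells and 5 AEC cells, *Mthfd2* in 3 and 4, and *Mthfd1l* in 9 and 3. The thinned ratios of these genes therefore rest on few reads of that draw. The difference in share, HEC minus AEC, turned for Atic-201 to -1.33 percentage points as a mean of per-cell shares, -16.4 with pooled reads and -14.4 without the 10 shallow or little-*Cdh5* cells, an alternative chosen after seeing the data. It turned for Atic-205 to 8.15 with pooled reads and 9.61 without the 10 cells, for Psat1-201 to -8.20 as a mean of per-cell shares and -7.00 without the 10 cells, and for Psat1-204 to 0.81 as a mean of per-cell shares. Leaving out single cells moved Atic-201 between -12.9 and 11.3, Atic-205 between -17.3 and 7.19, Impdh2-201 between -0.991 and 0.919, Shmt1-201 between -0.763 and 31.3 and Shmt1-208 between -6.69 and 32.8. The differences of both *Shmt2* transcripts (52.8 to 76.1 in size) and both *Mthfd1* transcripts (16.9 to 46.0 in size) kept their sign when single cells were left out, and the *Mthfd1* difference was 57.4 in size with pooled reads. Median log2 ratios of gene lists turned with median-of-ratios scaling to -0.018 for serine and glycine transport and cleavage, -0.14 for the other folate genes and -0.079 for purine salvage, and without the 10 cells to -0.17 for the other folate genes and 0.056 for the pentose phosphate pathway. The cause of these turns was not tested. No paired analysis was possible because the results come from no test and the cell numbers do not pair cells. Depth limits low genes: in the shallowest cell a single read is worth more than the mean of several of the 10 genes.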
